A study of Mus musculus with 20 samples.

Results

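The mouse microRNAs (miRNAs) mmu-miR-143-3p, mmu-miR-145a-5p and mmu-miR-145a-3p, written below without the species prefix, are mature products cut from the hairpins of 2 neighbouring genes, Mir143 and Mir145a. They were taken by the miRNA name that the array assigns to each probe, and are 3 of the 1881 mature mouse miRNAs on the array. Of the 3 members, 2 (miR-143-3p and miR-145a-5p) were detected on all 20 arrays and tested together with 607 other miRNAs, 609 in all. The remaining one, miR-145a-3p, was detected on 0 arrays and could not be tested. In the array's coordinates (build mm9) the part of miR-143-3p that its probes match lies on chromosome 18 from 61808895 to 61808909. The part of miR-145a-5p lies at 61807494 to 61807507 and that of miR-145a-3p at 61807526 to 61807546. The Mir145a and Mir143 probe matches are 1316 bases apart, and both genes lie within the long non-coding RNA gene Carmn in RefSeq's assembly GRCm38.p6.

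A miRNA hairpin has 2 arms, and usually one of them is loaded into the silencing complex while the other is degraded. The loaded strand pairs through its seed (bases 2 to 8) with messenger RNAs and lowers their output. In the vessel wall miR-143 and miR-145 are textbook products of contractile smooth muscle cells, induced by serum response factor and its coactivator myocardin. miR-145 represses Klf4 and Klf5, regulators that hold smooth muscle cells in a less contractile state, and miR-143 represses Elk1. Both fall when cultured smooth muscle cells leave the contractile state.

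The study followed aortic miRNAs on 2 diets over time. All 20 samples were ascending aorta bearing a lesion, from male mice that carried the double knockout named Apobtm2Sgy/Ldltm1Her in the labels. The alleles were shared by every group, and no group without them was used here. The groups were chow at week 0 (2 arrays), chow at weeks 6, 18 and 30 (3 arrays each) and high fat diet at weeks 6, 18 and 30 (3 arrays each). The labels write the week on the diet as the age and give no age at the start of feeding. They do not say whether a sample was 1 animal or a pool, and p-values here reflect only how far these samples scattered, which may be technical. The tissue is a mixture of cell types, and fewer smooth muscle cells cannot be told apart from less miRNA in each cell.

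Between 316 and 742 miRNAs were detected per array. There were 3 slides. All 8 arrays of weeks 0 and 6 shared slide 1. Every later chow array was on slide 2, together with the high fat replicates 1 and 2 of week 18, while slide 3 carried the third high fat array of week 18 and all of those from week 30. Across the miRNAs detected on every array, the members left out, 3 arrays had the lowest median correlation with the rest: replicate 1 of the high fat group at week 18 (0.665), of the high fat group at week 30 (0.704) and of the chow group at week 18 (0.752), against 0.810 or more on the other 17. The slide position written in the description differed from that in the file for 8 arrays, and for replicate 1 of both diets at week 18 the described position belongs to the other diet. Week 30 high fat replicates 2 and 3 were nearly identical (SD of their log2 differences 0.180), as were week 6 chow replicates 1 and 2 (0.281), where the typical pair of the same group had 1.02 (median of 19 pairs). High fat replicate 3 of week 18 and replicate 2 of week 30, from different groups, were as close (0.195). The labels do not say whether these arrays hold separate RNA, so n = 3 in those groups may count fewer independent samples. Without high fat replicate 3 of week 18, the miR-145a-5p difference on high fat from week 6 to week 18 was 0.73 (limma, adjusted p = 0.62), against 0.75 with it.

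Values below are scaled log2 signals, that is, the log2 of the spot intensity relative to an array's own 75th percentile, taken over the miRNAs that every array detected. A difference of 1 is a doubling. A level can be compared between groups for the same miRNA but not between miRNAs, since probes differ in brightness. Before scaling, the miR-143-3p signal ran from 138 to 3774 with a median of 1438, and the miR-145a-5p signal from 166 to 1246 with a median of 519. The SD of the negative control spots was at most 2.53 on 19 arrays and 22.3 on week 18 high fat replicate 3. Both members were well above background on every array.

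miR-143-3p, the guide strand of Mir143, had no group that stood apart. It read 10.81 and 10.27 on the week 0 chow arrays. At week 6 it read 10.02, 10.16 and 9.59 on chow and 9.90, 10.42 and 9.83 on high fat. All chow arrays of week 6 were below both arrays of week 0, while the high fat arrays of week 6 overlapped them. At week 18 it read 9.38, 10.33 and 10.997 on chow and 9.63, 10.84 and 10.79 on high fat. At week 30 it read 10.40, 10.43 and 10.62 on chow and 8.72, 10.80 and 10.78 on high fat. The lowest value in each of the week 18 chow, week 18 high fat and week 30 high fat groups came from replicate 1, the array of that group that was least like the others.

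In order of mean level (± SD, n = 3 except n = 2 at week 0), miR-143-3p was at 10.54 ± 0.38 at week 0, 10.48 ± 0.12 at week 30 on chow, 10.42 ± 0.68 at week 18 on high fat and 10.24 ± 0.81 at week 18 on chow. It was lower at week 30 on high fat (10.10 ± 1.19), week 6 on high fat (10.05 ± 0.32) and week 6 on chow (9.92 ± 0.30). Every pair of neighbours in this order overlapped, and none of the steps exceeded the larger SD of its pair.

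miR-145a-5p, the guide strand of Mir145a, was lowest at week 6 in both diets. It read 9.18 and 8.98 at week 0. At week 6 it read 8.24, 8.17 and 8.25 on chow and 8.14, 8.55 and 8.498 on high fat. All 6 arrays of week 6 were thus below both arrays of week 0. At week 18 it read 9.73, 8.45 and 9.16 on chow and 9.25, 9.004 and 9.19 on high fat. At week 30 it read 8.78, 8.81 and 8.81 on chow and 9.75, 9.28 and 9.34 on high fat. The 3 high fat arrays of week 30 were above the 3 chow arrays of that week, and week 18 chow was the group with the widest spread.

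In order of mean level, miR-145a-5p was at 9.46 ± 0.26 (SD, n = 3) at week 30 on high fat, 9.15 ± 0.13 (SD, n = 3) at week 18 on high fat, 9.11 ± 0.64 (SD, n = 3) at week 18 on chow and 9.08 ± 0.14 (SD, n = 2) at week 0. Lower means were found at week 30 on chow (8.80 ± 0.02, SD, n = 3), week 6 on high fat (8.40 ± 0.23, SD, n = 3) and week 6 on chow (8.22 ± 0.05, SD, n = 3). Neighbours did not overlap at 3 steps of this order: from week 30 to week 18 on high fat, from week 0 to week 30 on chow, and from week 30 on chow to week 6 on high fat. The other neighbours overlapped.

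**Figure D1:**
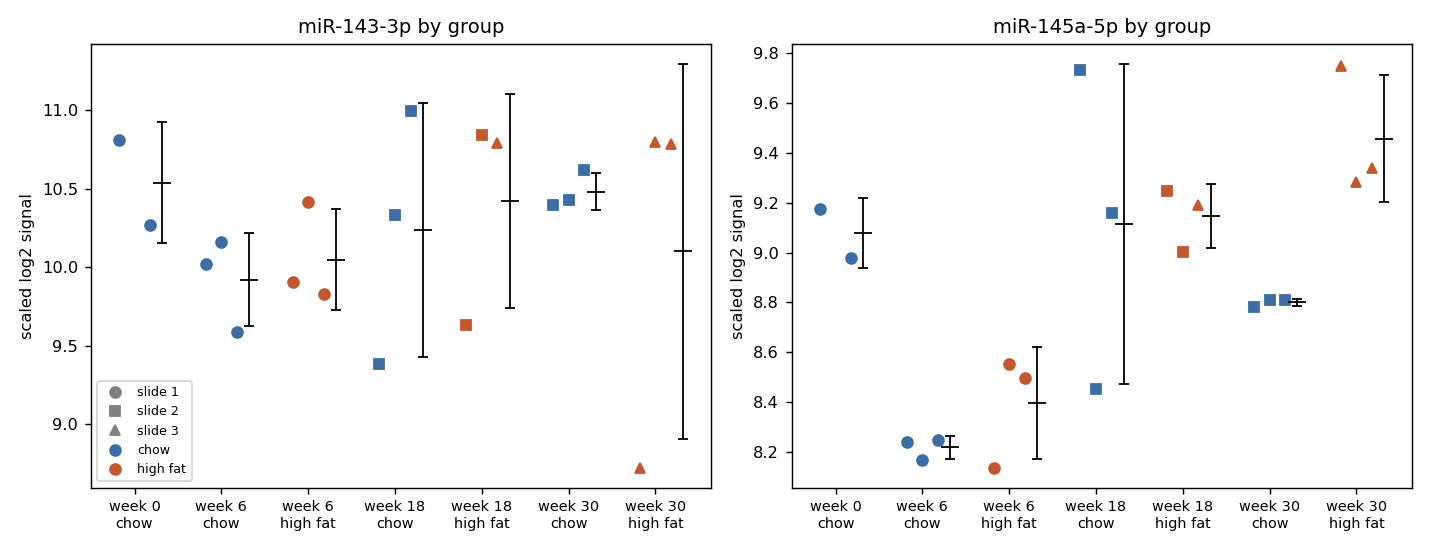
Scaled log2 signal of miR-143-3p (left) and miR-145a-5p (right) on each of the 20 arrays, by group; colour gives the diet, the marker shape the slide, and the bar beside each group its mean ± SD (n = 3, n = 2 at week 0). The 6 week 6 arrays of miR-145a-5p lie between 8.14 and 8.55, below both week 0 arrays, and miR-143-3p has a single value as low as 8.72, on week 30 high fat replicate 1.

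Feeding was compared at each week. By limma, with p adjusted over all 609 miRNAs, neither member differed between the diets at weeks 6, 18 or 30 or in the mean over the 3 weeks. The share of all miRNAs called was 2.96% at week 6, 0% at weeks 18 and 30, and 0.164% for the mean. miR-143-3p differed between high fat and chow by 0.13 (SE 0.54) at week 6, 0.18 (SE 0.54) at week 18 and -0.38 (SE 0.54, adjusted p = 0.628) at week 30. Its mean diet difference was -0.02 (SE 0.31), with a 95% confidence interval from -0.68 to 0.64. At week 30 the negative sign rested on replicate 1 of the high fat group, without which the difference was 0.31. At week 18 the difference was -0.24 without chow replicate 1.

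miR-145a-5p differed between the diets by 0.18 (SE 0.34) at week 6 and 0.03 (SE 0.34) at week 18, where the 95% interval ran from -0.69 to 0.75. At week 30 it was 1.58-fold higher on high fat (log2 difference 0.66, SE 0.34, adjusted p = 0.283), and the groups did not overlap. This separation was common at week 30: 28.6% of the tested miRNAs were higher on every high fat array than on any chow array. The diets of week 30 lay on different slides. With slide as a block the difference was 0.59 (adjusted p = 0.683). Slides 2 and 3 were tied only through the week 18 high fat group, with replicate 3 alone on slide 3. That array had a negative control SD of 22.3 and was nearly identical to week 30 high fat replicate 2, so the slide correction rests on 1 doubtful array. Without any scaling between the arrays it was -0.02. The mean diet difference was 0.29 (SE 0.20, adjusted p = 0.356). The change of the diet difference over the weeks was not called for miR-145a-5p (F test, adjusted p = 0.712) or miR-143-3p (adjusted p = 0.833), with 0.985% of all miRNAs called.

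From week 0 to week 6 both members read lower, without passing the threshold. miR-145a-5p was 1.81-fold lower on chow (log2 difference -0.86, SE 0.38, 95% interval -1.66 to -0.05, adjusted p = 0.138). On chow, 20.4% of all miRNAs were called in this step: 123 (20.2%) were higher and 1 was lower, and 12.3% were lower with no overlap, miR-143-3p and miR-145a-5p among them. On high fat miR-145a-5p was 1.60-fold lower than at week 0 (log2 difference -0.68, SE 0.38, adjusted p = 0.531), where 0% of miRNAs were called and 4.93% were lower with no overlap. It was one of 24 miRNAs (3.94%) below week 0 with no overlap in both diets. These 2 steps share the week 0 arrays. miR-143-3p differed by -0.62 (SE 0.61, adjusted p = 0.609) on chow and -0.49 (SE 0.61, adjusted p = 0.757) on high fat. All arrays of weeks 0 and 6 lay on slide 1, and a fit to that slide alone gave the same differences (miR-145a-5p on chow, adjusted p = 0.0797). The call depended on the setting: the miR-145a-5p difference on chow passed with quantile normalization (-1.25, adjusted p = 0.0393), with scaling to the 75th percentile of all miRNAs (-2.31, adjusted p = 0.0205) and without the 3 arrays least like the others (-0.86, adjusted p = 0.036). Over its alternatives other than leaving out single arrays, the adjusted p ran up to 0.656.

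From week 6 to week 18 miR-145a-5p read higher in both diets, again without passing the threshold. Within a diet this step shares its week 6 arrays with the step from week 0, where they enter with the opposite sign. The 2 steps are thus not separate evidence. On chow it was 1.86-fold higher (log2 difference 0.90, SE 0.34, 95% interval 0.18 to 1.62, adjusted p = 0.0842). On high fat it was 1.68-fold higher (log2 difference 0.75, SE 0.34, 95% interval 0.03 to 1.47, adjusted p = 0.472). On both diets every week 18 array was above every week 6 array. Few miRNAs rose with this separation: 1.97% of those tested did so on chow and 0.164% on high fat, which is miR-145a-5p alone, so that it was the single miRNA of 609 (0.164%) separated upward in both diets. It was singled out for this after its values were seen. By the test, 16.4% of miRNAs were called on chow, of which 100 were lower and 0 higher, and 0% on high fat.

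This separation changed with the scaling. With normexp background correction miR-145a-5p was again alone. With quantile normalization 2 miRNAs separated upward in both diets, miR-145a-5p included. With no scaling 2 other miRNAs did and the chow values of miR-145a-5p overlapped, and with the 75th percentile of all miRNAs 0 did and its high fat values overlapped. On chow the week 18 value rested in part on replicate 1: without that array the difference was 0.59 (adjusted p = 0.362), and without replicate 2 it was 1.23 and passed (adjusted p = 0.0186). With the diets of the 2 doubtful week 18 arrays exchanged, the differences were 0.73 on chow and 0.91 on high fat. Of the 6 arrays of week 18, 5 lay on slide 2, 1 on slide 3 and 0 on slide 1, so that slide and week cannot be told apart in this step. miR-143-3p differed by 0.32 (SE 0.54, adjusted p = 0.721) on chow and 0.37 (SE 0.54, adjusted p = 0.757) on high fat, with overlap in both. The sign on chow rested on week 18 replicate 3, without which the difference was -0.06.

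Of 5 leukocyte markers tested (miR-142a-3p, miR-142a-5p, miR-223-3p, miR-150-5p and miR-155-5p), 2 fell on chow from week 6 to week 18, namely both arms of miR-142a, the miRNA found across blood cells, where 16.4% of all miRNAs were called lower, and 0 were called on high fat. The median over the 5 was -1.68 on chow and -1.19 on high fat, against -0.16 and -0.12 over all miRNAs. The medians of the 3 red cell markers (-1.90 on chow, -0.19 on high fat) and of the 6 epithelial markers (-1.74 and -1.36) were also negative, with 0 called in either list. Fibroblast markers had medians of 0.58 on chow and 0.009 on high fat, and adipose markers 0.51 and -0.60. Striated muscle markers had 0.06 and -1.12, and endothelial markers -0.16 and -0.23. None of these lists had a miRNA called in this step. miR-142a-3p fell by 4.15 on the log2 scale on chow (SE 1.02, adjusted p = 0.00952), from 11.10 ± 0.28 to 6.95 ± 1.81 (SD, n = 3 each), and was well above background on 2 of the 3 week 18 arrays. Without week 18 chow replicate 1, with no scaling and with the 75th percentile of all miRNAs, 0 of the 5 were called, and with the near-identical arrays averaged or the 2 doubtful diets exchanged, 1 was. The summed scaled signal of the 5 markers was 2594 to 3817 on the week 6 chow arrays and 422 to 836 on the week 18 chow arrays. On high fat it was 610 to 6113 and 297 to 2468, with overlap. The part of these cell types in the miR-145a-5p difference was not tested.

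No later step passed the threshold for a member. From week 18 to week 30 miR-145a-5p differed by -0.31 (SE 0.34) on chow and 0.31 (SE 0.34, adjusted p = 0.809) on high fat, where the groups did not overlap, as for 3.28% of miRNAs that were higher at week 30. miR-143-3p differed by 0.25 on chow and -0.32 on high fat (SE 0.54 each). Of all miRNAs 0% were called in either step. From week 0 to week 30 miR-145a-5p differed by -0.28 (SE 0.38, adjusted p = 0.663) on chow, below week 0 with no overlap like 17.1% of miRNAs. On high fat it differed by 0.38 (SE 0.38, adjusted p = 0.515), above week 0 with no overlap like 38.1% of miRNAs. miR-143-3p differed by -0.06 on chow and -0.44 on high fat (SE 0.61 each, adjusted p = 0.971 and 0.667), with overlap in both. In all, neither member was called in any of 13 comparisons. An unadjusted limma p below 0.05 was found in 3 of them for miR-145a-5p and in 0 for miR-143-3p. Of all 609 miRNAs, 174 had such a p from week 0 to week 6 on chow. From week 6 to week 18, 183 did on chow and 61 on high fat. The 3 of miR-145a-5p lie in these comparisons, and those on chow share the week 6 chow arrays.

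**Figure D2:**
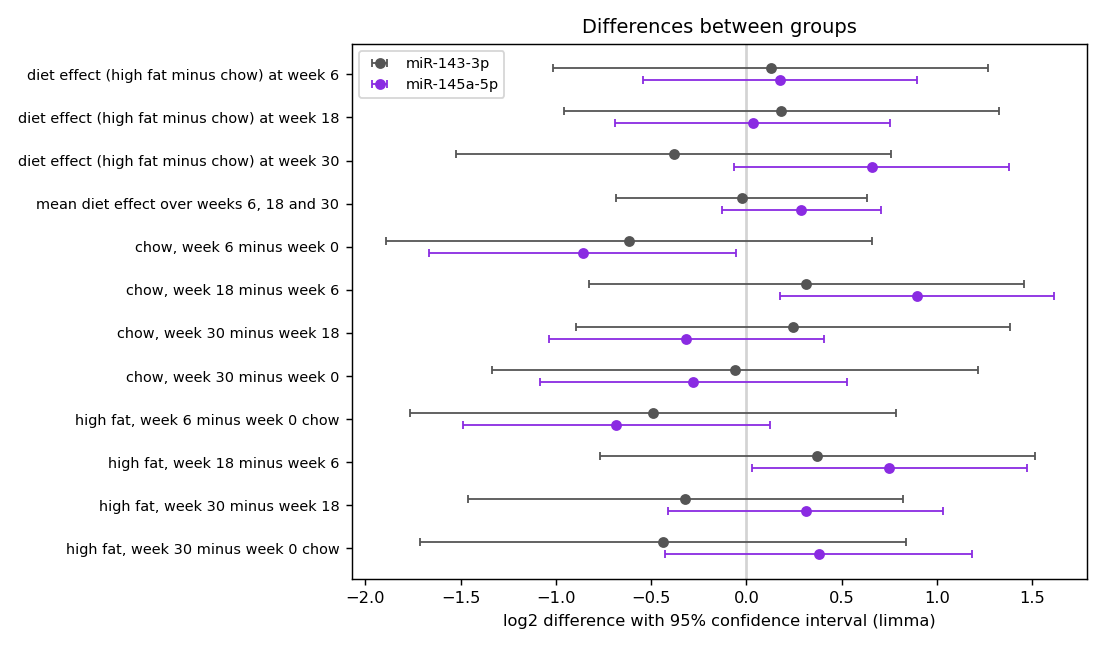
Log2 differences between groups for miR-143-3p (grey) and miR-145a-5p (violet) in 12 comparisons, with 95% confidence intervals from limma. The intervals of miR-145a-5p that exclude 0 before adjustment are those of week 6 minus week 0 on chow (-0.86) and week 18 minus week 6 on chow (0.90) and high fat (0.75). In these comparisons 174, 183 and 61 of the 609 miRNAs had an unadjusted limma p below 0.05. Each interval of miR-143-3p includes 0.

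Because Mir143 and Mir145a are neighbours in one host transcript, the difference between the log2 values of miR-143-3p and miR-145a-5p was followed on each array. This difference needs no scaling between arrays, and only its change is read, since its zero depends on the probes. On 17 arrays it lay between 1.29 and 1.99. It was 0.39 and -0.35 on replicate 1 of week 18, on high fat and chow, and -1.03 on high fat replicate 1 of week 30. These are the same 3 arrays that were least like the others when the members were left out of that measure. On each of them miR-143-3p was the lowest and miR-145a-5p the highest of its group.

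The departure did not depend on one probe. Each member had 2 probes, of 15 and 16 bases for miR-143-3p and 13 and 14 bases for miR-145a-5p. The probes of one miRNA correlated over the arrays at 0.9995 for miR-143-3p and 0.9986 for miR-145a-5p, and their ratio stayed between 1.35 and 1.47 and between 1.45 and 1.64. All 4 pairings of a miR-143-3p probe with a miR-145a-5p probe placed these 3 arrays lowest. With probes this closely correlated, the pairings are not independent readings. The repeat spots of a probe varied by a median of 2.18% for miR-143-3p and 3.44% for miR-145a-5p.

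The difference between the members was not tied to diet or week by the tests the design allowed. Its high fat minus chow difference was -0.05 at week 6, 0.15 at week 18 and -1.04 at week 30, with a mean of -0.31 (exact permutation of the diet within weeks, 2-sided, p = 0.467, adjusted p = 0.70 over 3 tests; the smallest p that the 8000 permutations allow is 2.5e-04). Over weeks 6, 18 and 30 the exact permutation of the week gave p = 0.871 on chow and p = 0.418 on high fat (adjusted p = 0.871 and 0.70, smallest possible 0.00357). Without the 3 arrays the mean diet difference was -0.13 (exact permutation p = 0.172). The planned difference of the 2 arms of Mir145a was not computed because miR-145a-3p was not above background.

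**Figure D3:**
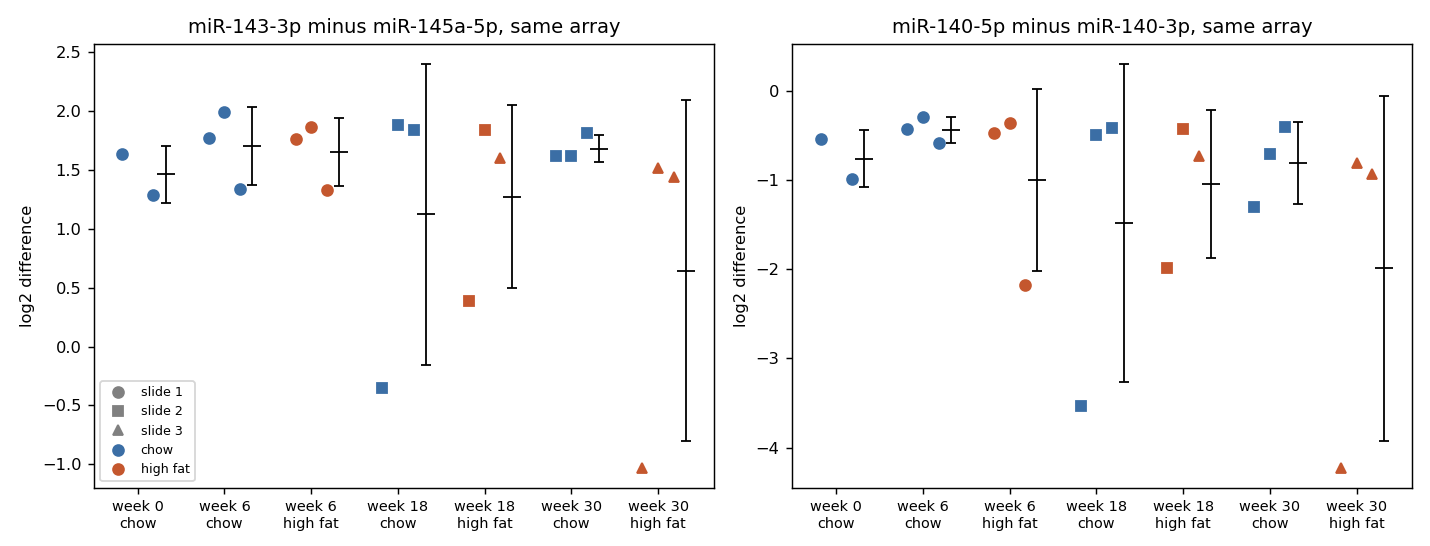
Log2 difference between 2 miRNAs on the same array, for miR-143-3p minus miR-145a-5p (left) and miR-140-5p minus miR-140-3p (right); colour gives the diet, the marker shape the slide, and bars the mean ± SD of each group. In both panels the lowest arrays are replicate 1 of week 18 on chow and of week 30 on high fat, at -0.35 and -1.03 on the left and -3.54 and -4.22 on the right. The miR-140 arms were picked by their correlation with the members over these same arrays, so the 2 panels are not independent.

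After scaling, the members showed no clear correlation over all 20 arrays. Pearson's r between miR-143-3p and miR-145a-5p was -0.06 (permutation p = 0.816) and Spearman's rho 0.18 (permutation p = 0.452) over 20 arrays. Without the 2 arrays farthest from the median of miR-143-3p, r was 0.64, so the value rested on them. Without the 3 arrays least like the others, r was 0.86 and rho 0.83 (n = 17). These are given as a description, and their permutation p-values are not read. The 3 arrays were left out after the data were seen and are those on which the members part most. Within slide 1 r was 0.75 and within slide 2 it was -0.56 (8 arrays each), and on deviations from the group means it was -0.47. Without scaling between arrays r was 0.82 (permutation p = 1e-05, the smallest 100000 resamples can give) and rho 0.84 (permutation p = 5e-05), values that include the brightness shared by all miRNAs of an array. Adjusted over the 10 permutation p-values of this family, the unscaled r had p = 1e-04 and the r of the scaled values p = 0.816. The p-values of the 17 arrays were counted in that family.

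**Figure D4:**
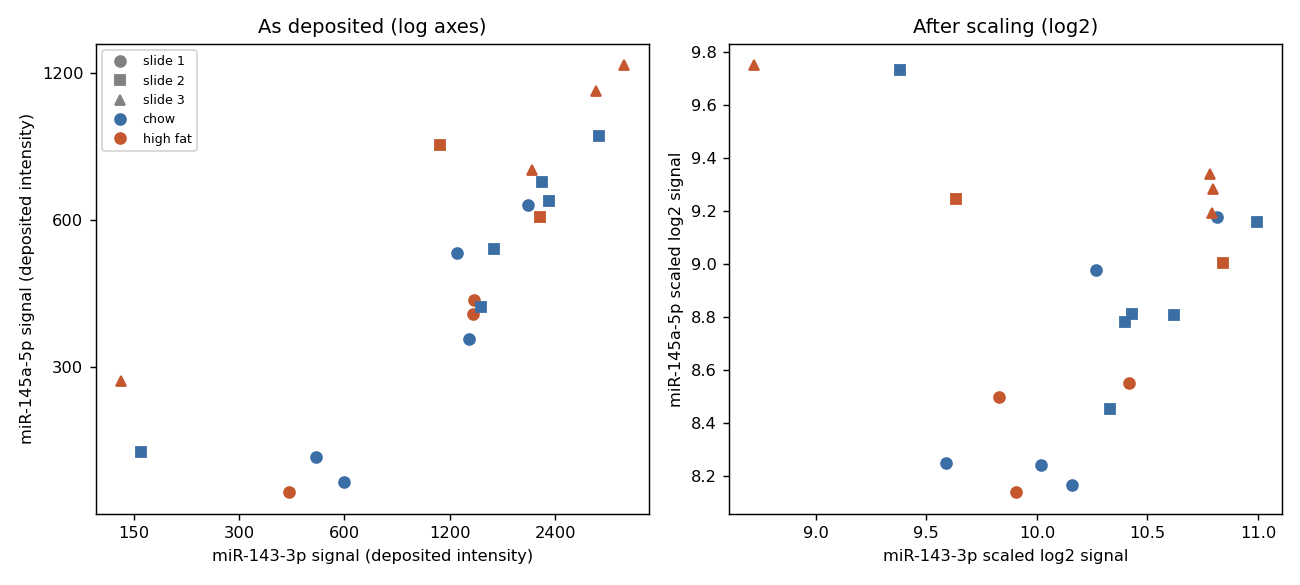
miR-145a-5p against miR-143-3p on each of the 20 arrays, as deposited on log axes (left) and after scaling (right); colour gives the diet and the marker shape the slide. After scaling, 3 arrays lie to the upper left, at miR-143-3p values of 8.72, 9.38 and 9.63 with miR-145a-5p between 9.25 and 9.75, and the other 17 rise together (r = 0.86).

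The miRNAs most like each member over the 20 arrays were found by Pearson's r of the scaled values, as a description. For miR-143-3p they were miR-140-5p (r = 0.89), miR-29c-3p (0.84), which targets collagen messages, miR-152-3p (0.79), which targets Dnmt1, miR-30a-5p (0.78) and miR-224-5p (0.78). For miR-145a-5p they were miR-140-3p (0.83), miR-320-3p (0.77), miR-193b-5p (0.75), miR-135a-1-3p (0.74) and miR-450a-2-3p (0.74). None is on both lists, and 9 of the 10 correlated negatively with the other member, the weakest being miR-140-3p at -0.05. A negative sign was common: of 607 other tested miRNAs, 349 correlated negatively with miR-143-3p and 337 with miR-145a-5p. Without the 3 arrays least like the others, r fell to 0.38 for miR-152-3p and 0.44 for miR-30a-5p, and was 0.80 for miR-224-5p and 0.86 for miR-140-3p. Mature sequences from RefSeq (GRCm38.p6) were at hand for 8 of the 10 and are shown, 5′ to 3′ with the seed in capitals, to let the reader see that the miRNAs that followed a member do not share a seed with one another.
miR-29c-3p, like miR-143-3p: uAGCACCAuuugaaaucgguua
miR-152-3p, like miR-143-3p: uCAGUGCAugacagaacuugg
miR-30a-5p, like miR-143-3p: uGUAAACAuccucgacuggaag
miR-224-5p, like miR-143-3p: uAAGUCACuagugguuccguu
miR-140-3p, like miR-145a-5p: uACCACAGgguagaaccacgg
miR-193b-5p, like miR-145a-5p: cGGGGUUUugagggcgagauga
miR-135a-1-3p, like miR-145a-5p: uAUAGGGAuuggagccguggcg
miR-450a-2-3p, like miR-145a-5p: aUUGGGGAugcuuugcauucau

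The 8 sequences carry 8 different seeds. They differ in base composition: the probes of the 5 miRNAs like miR-143-3p held a mean of 44.4% G and C, and those of the 5 like miR-145a-5p 59.4%, against a median of 60% over the miRNAs that every array detected. The longest probe held 50% for miR-143-3p and 57.1% for miR-145a-5p. On the 3 arrays least like the others, miRNAs with more G and C in their probes read higher than their median over the other arrays. This was read across the miRNAs that every array detected, which are not independent replicates. The correlation of this deviation with probe G and C was 0.51 on week 18 chow replicate 1, 0.48 on week 18 high fat replicate 1 and 0.58 on week 30 high fat replicate 1. It was also 0.44 on week 18 high fat replicate 3 and 0.52 and 0.59 on week 30 high fat replicates 2 and 3, where the difference between the members was 1.60, 1.52 and 1.44, like the other arrays. The part of base composition in the members' difference was not tested.

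miR-140 offers a second pair from a single precursor, singled out after its values were seen. Its 2 arms come from 1 hairpin, yet miR-140-5p was most like miR-143-3p and miR-140-3p most like miR-145a-5p. The difference of miR-140-5p minus miR-140-3p was -4.22 on week 30 high fat replicate 1, -3.54 on week 18 chow replicate 1, -2.17 on week 6 high fat replicate 3 and -1.98 on week 18 high fat replicate 1. On the other 16 arrays it lay between -1.30 and -0.29.

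miR-145a-3p, the passenger strand of Mir145a, with 4 probes, had 0% of its spots well above background on any array. Its signal lay between -1.12 and 3.67 on 19 arrays and was 29.1 on week 18 high fat replicate 3, the array with the wide negative controls. miR-145b, named for its likeness to miR-145a, was likewise detected on 0 of 20 arrays. miR-143-5p, the passenger strand of Mir143, was detected on 18 of 20 arrays, with a signal of 4.72 to 64.1 before scaling. Its 2 probes agreed less well than those of the guide strands (r = 0.82).

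Of the wider list of 24 miRNAs known from vascular smooth muscle, 22 were tested and 15 were detected on every array. At the diet comparisons of weeks 6, 18 and 30 and their mean, 0 of the 22 were called. The median difference over the 22 was 0.17, -0.02 and -0.55 at weeks 6, 18 and 30, against -0.11, 0.26 and -0.13 over all miRNAs. At week 30 3 of the 22 were higher on high fat and 19 lower, with miR-145a-5p among the 3. From week 0 to week 30 on high fat 6 of the 22 fell and 0 rose, where 5.09% of all miRNAs were called lower and 16.4% higher. The median of the list was -0.66, against 0.35 over all miRNAs. In the same comparison the median of the 5 leukocyte markers was -2.15, with 1 of them called (miR-142a-3p, -3.33, adjusted p = 0.0463, undetected on 1 of the 3 week 30 arrays), and that of the 2 endothelial markers was -1.48, with 0 called. Their part in the count was not tested. Week 0 lay on slide 1 and week 30 high fat on slide 3, so slide and group cannot be told apart here.

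The 6 that fell were miR-23b-3p, miR-100-5p, miR-10a-5p, miR-195a-5p, miR-31-5p and miR-146a-5p. miR-23b-3p, a miRNA of the vessel wall, was at 10.49 ± 0.01 (SD, n = 2) at week 0 and 9.35 ± 0.10 (SD, n = 3) at week 30 on high fat (log2 difference -1.14, SE 0.38, adjusted p = 0.0436). miR-195a-5p, of the cell cycle-braking miR-15 family, went from 9.42 ± 0.11 to 7.20 ± 1.44 (log2 difference -2.22, SE 0.68, adjusted p = 0.0353). miR-146a-5p, a feedback inhibitor of NF-kB signalling, differed by -3.25 (SE 1.00, adjusted p = 0.0361) and was detected on 2 of the 3 week 30 arrays, all near the floor of 3.09, so that the floor sets part of the difference. miR-31-5p, linked to smooth muscle growth, differed by -1.87 (SE 0.53) and was also detected on 2 of 3, with the third at the floor. miR-100-5p differed by -1.36 (SE 0.45) and miR-10a-5p, an endothelial regulator of inflammation, by -1.60 (SE 0.52). The count was not stable, and neither was the count over all miRNAs, which was 131 of 609 in the main fit. Without the 3 arrays least like the others, 7 of the list were lower and 1 higher, where 209 of all miRNAs were called. With the 75th percentile of all miRNAs 10 were lower, where 151 were called. The list count was 0 with the near-identical arrays averaged and with no scaling, where 0 of all miRNAs were called. With normexp background correction it was 0, where 36 were called. Without high fat replicate 2 or 3 of week 30 it was 0, where 0 were called. Without replicate 1 it was 1 (miR-100-5p), where 54 were called. Without either week 0 array, which leaves 1 in that group, the list median was -0.96 or -0.63. In the same comparison the miR-145a-5p value was 0.38 and that of miR-143-3p -0.44, neither called.

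In the chow steps 1 member of the list was called, in a step where 20.2% of all miRNAs were called higher. miR-206-3p, a skeletal muscle miRNA, rose on chow from week 0 to week 6 (log2 difference 5.01, SE 1.34, adjusted p = 0.0207), from 3.76 ± 0.94 (SD, n = 2), detected on 1 of 2 arrays, to 8.77 ± 1.504 (SD, n = 3). The other week 0 array was at the floor of 3.09, so the size of this difference is set in part by the floor. It was no longer called without either week 0 array, without week 6 chow replicate 1 or 3, with the near-identical arrays averaged, or with no scaling, quantile normalization or the 75th percentile of all miRNAs. That last setting called 11 members of the list lower, miR-143-3p and miR-145a-5p among them, and 88 of all 609 miRNAs. Calls over all miRNAs were 124 in the main fit. They were 17 and 62 without week 6 chow replicate 1 and 3, and 11 with the near-identical arrays averaged. With no scaling 1 was called, and with quantile normalization 32 were. In the chow steps from week 6 to 18, 18 to 30 and 0 to 30, and in the high fat steps from week 0 to 6, 6 to 18 and 18 to 30, 0 of the 22 were called.

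Markers linked to other cell types were read as well, and how many were detected differed between the lists. Both endothelial markers were tested and 1 was on all arrays: miR-126a-3p, the main endothelial miRNA, was at 12.02 ± 0.48 (SD, n = 2) at week 0 and 10.46 ± 1.00 (SD, n = 3) at week 30 on high fat. These are the highest and lowest of its 7 group means, and they lie on different slides. The difference was not called (-1.57, SE 0.67, limma, adjusted p = 0.0947). Of 3 fibroblast markers all 3 were on every array, and of 4 adipose markers 3 were. Of 7 striated muscle markers 4 were tested, and of these miR-206-3p was called in the chow step above. Of 6 epithelial markers 0 were on every array, and the summed scaled signal of the 6 ran from 55.4 to 2329 on the week 18 chow arrays. The summed signal of the 3 red cell markers ran from 659 to 5144 on the same arrays. Of 3 neuron markers 0 were tested. Whether each of these cell types was present, and how far it bears on the members' levels, was not tested.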

How the data were processed

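The authors deposited spot intensities made, per the submitters' processing notes, with version 11.5.1 of Agilent Feature Extraction; per the file headers these are background-subtracted, spatially detrended 1-colour (Cy3) intensity, with no scaling between arrays by the authors. RNA was extracted with TRIZOL, per the labels' protocols. The deposited value table held the same numbers. Each array has 58594 features.

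Control and outlier spots were left out, and means were taken over a probe's spots, then over a miRNA's probes. A miRNA was detected where at least 0.5 of a probe's spots were well above background. Arrays were scaled to their 75th percentile, taken over those miRNAs that all 20 arrays detected. Values were log2 transformed, with a floor of 3.09 on the log2 scale. limma 3.58.1 (R 4.3.3) compared all 7 groups with 13 residual degrees of freedom for the 609 miRNAs that some group detected throughout, 2-sided, with Benjamini-Hochberg adjustment at 0.05. The script was checked on simulated data.

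Named miRNAs were the members, their sister arms, the 5 most correlated with each tested member, smooth muscle list members that passed, and fixed markers. The members and lists were chosen with earlier results of these data known. Sequences of the members are not reported here. Alternatives covered scaling, background correction, the filter, slide and replicate blocks, and arrays left out. Replicate numbers were not taken to pair samples, since not every pair's deviations correlated above 0.1. Base composition was read from the longest probe. Precision is limited by the number of arrays.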

Additional observations from a re-analysis of the deposited data

How the results depend on the processing

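Over the alternatives run on the differences of the 2 tested members, 426 values kept their direction and side of the threshold, 42 changed sign and 6 passed it that had not; of the 42, none was called. Scaled to the 75th percentile of all miRNAs, miR-143-3p differed by -2.07 in chow from week 0 to 6 (adjusted p = 0.0384), -0.078 in chow from week 18 to 30, -0.32 between diets at week 18 and 0.011 in the mean diet effect, and miR-145a-5p by -2.31 in chow from week 0 to 6 (adjusted p = 0.0205), -0.47 between diets at week 18 and -0.61 in high fat from week 0 to 30. With quantile normalization, miR-143-3p differed by 0.036 in the mean diet effect and 0.066 in chow from week 0 to 30, and miR-145a-5p by -0.077 between diets at week 18, -1.25 in chow from week 0 to 6 and 1.29 in chow from week 6 to 18 (adjusted p = 0.0393 and 0.022). With no scaling, miR-143-3p differed by 0.16 in the mean diet effect and 0.35 in chow from week 0 to 30, and miR-145a-5p by -0.023 between diets at week 30, 0.60 and 0.12 in chow from week 18 and from week 0 to 30, and -0.49 in high fat from week 18 to 30. Without the 4 arrays with the fewest detected miRNAs, miR-143-3p differed by -0.43 and 0.31 between diets at weeks 18 and 30, 0.040 in the mean, -0.18 in chow from week 18 to 30, and 0.55 and 0.25 in high fat to week 30 from week 18 and week 0. Without the 3 arrays least like the others, an alternative added after seeing the data, the values were 0.31 at week 30, 0.20 in the mean, -0.18 and 0.25 in chow and high fat as above, and -0.86 for miR-145a-5p in chow from week 0 to 6 (adjusted p = 0.036). The correlation of the members (r = -0.06) changed sign in 4 alternatives, being 0.82 with no scaling, 0.49 with the 75th percentile of all miRNAs, 0.14 with quantile normalization and 0.86 without the 3 arrays. It was also positive within slide 1 (0.75), but stayed negative within slide 2 (-0.56) and on deviations from the group means (-0.47). The cause of these changes was not tested.

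Leaving out 1 array at a time, miR-143-3p ranged from -0.055 to 0.25, -0.24 to 0.58 and -0.73 to 0.31 between diets at weeks 6, 18 and 30, -0.17 to 0.21 in the mean, -0.064 to 0.74, -0.18 to 0.63 and -0.33 to 0.21 in chow from week 6 to 18, 18 to 30 and 0 to 30, and -0.71 to 0.37 and -0.79 to 0.25 in high fat from week 18 and week 0 to 30. miR-145a-5p ranged from -0.30 to 0.34 between diets at week 18 and 0.59 to 1.23 in chow from week 6 to 18. Same-numbered samples had correlations of deviations of -0.46, 0.61 and -0.33 at week 6, 0.63, 0.68 and 0.049 at week 18, and 0.26, 0.19 and 0.13 at week 30, so not every pair was above 0.1 and the replicate numbers in the titles were not taken to pair samples; with the replicate number as a block miR-145a-5p differed by 0.90 in chow from week 6 to 18 (adjusted p = 0.0794) and by 0.66 between diets at week 30 (adjusted p = 0.224), and no call of a member changed. With slide as a block, the steps from week 6 to 18 and from week 0 to 30 could not be estimated.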
